A study of Bos taurus with 9 samples.

Results

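The 2056 peaks of RNA polymerase II (RNA pol II) before weaning, out of 130580 peaks in the 8 peak lists of the series, were sorted by the acetylation peaks they touched at the same time point. RNA pol II is the enzyme that transcribes protein-coding genes. The acetylation marks were H3K27ac (acetylation of histone H3 at lysine 27, 74249 peaks) and H3K9ac (acetylation at lysine 9, 14384 peaks). All peaks of the RNA pol II list were members, and a peak touched a mark when it shared at least 1 bp with a peak of that mark. The chromatin came from calves of the Holstein dairy breed that had not yet been weaned, and the tissue was the epithelium of the rumen. This is the fermentation chamber of the cattle stomach, which grows as a calf changes from milk to solid feed. The number, age and pooling of the animals were not given in the sources used here, and each target had 1 library per time point. With no replicates, every value describes single libraries. Intervals are 95% intervals (Wilson for a share, order statistics for a median, exact Poisson for a density) that cover counting error only. Peaks close to each other are not independent.

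At an active promoter, RNA pol II assembles over a stretch of open DNA, and the flanking nucleosomes usually carry both acetylation marks. H3K27ac is also found at enhancers, the distal elements that act on promoters, whereas H3K9ac is best known from promoters. H3K9me3, trimethylation at lysine 9, is instead a mark of heterochromatin, the condensed and mostly silent part of the genome. In bulk tissue, a peak present in few cells and a weak peak present in all cells cannot be told apart, and marks that meet at a position may come from different cells.

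The labels and the text of the study differ on which RNA pol II list belongs to which time point, and the labels were followed. The list labelled after weaning, set against the same acetylation lists, gave a different picture: of its 738 peaks, 6.50% touched both marks and 81.3% touched neither. By the labels, the RNA pol II and H3K27ac libraries before weaning were sequenced on lane 2, as was H3K9me3, and H3K9ac on lane 1. The same input served for the calling of every list. It is chromatin sequenced without immunoprecipitation, and a region over-represented in the sequenced DNA can appear in several lists.

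By a touch of at least 1 bp, most RNA pol II peaks before weaning lay on acetylation peaks, and the class on both marks was the largest. Of the 2056 peaks, 912 touched both marks (44.4%, 95% CI 42.2 to 46.5) and 657 touched H3K27ac only (32.0%, 29.97 to 34.0). H3K9ac only was touched by 90 peaks (4.38%, 3.57 to 5.35). The other 397 peaks (19.3%, 17.7 to 21.1) touched neither mark. When both peaks had to share at least 50% of their length, these shares were 4.09%, 6.37%, 23.3% and 66.2%. H3K27ac only also became the largest class when the RNA pol II centre had to lie inside the acetylation peak (36.3%, against 35.2% on both marks) and when only acetylation peaks wider than the median of their list were used (41.1% against 30.4%). Neither mark passed H3K27ac only when acetylation peaks were extended by 1000 bp (16.9% against 15.0%) or when the H3K27ac list was limited to its widest peaks, as many as H3K9ac had (29.3% against 22.0%). The order of the classes therefore depended on the rule and on the peaks used. Acetylation peaks covered 1.33% of the 2658.3 Mb spanned by the chromosomes. Few members sat close to the limit of the rule: 10 of the 1569 peaks on H3K27ac and 28 of the 1002 on H3K9ac shared 50 bp or less with the mark. Among the peaks that missed a mark, 5 lay within 50 bp of an H3K27ac peak and 25 within 50 bp of an H3K9ac peak.

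H3K9me3, which the sorting did not use, differed between the 4 classes. Over all RNA pol II peaks before weaning, 21.7% touched an H3K9me3 peak of the same time point. On both marks it was 32 of 912 peaks (3.51%, 2.50 to 4.91), and on H3K27ac only 4 of 657 (0.609%, 0.237 to 1.55). On H3K9ac only it was 85 of 90 (94.4%, 87.6 to 97.6), and on neither mark 325 of 397 (81.9%, 77.8 to 85.3). By this rule, RNA pol II peaks that touched no H3K27ac thus mostly lay on H3K9me3, whether or not they had H3K9ac. The difference depended on the rule. With a reciprocal overlap of 50%, H3K9ac only had 12.7% on H3K9me3 (n = 479), below the 16.7% on both marks (n = 84), and neither mark had 26.8%. With the H3K27ac list cut to the length of the H3K9ac list, H3K9ac only had 47.2% (n = 246) and neither mark 54.7%, against 0.132% on both marks.

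**Figure D1:**
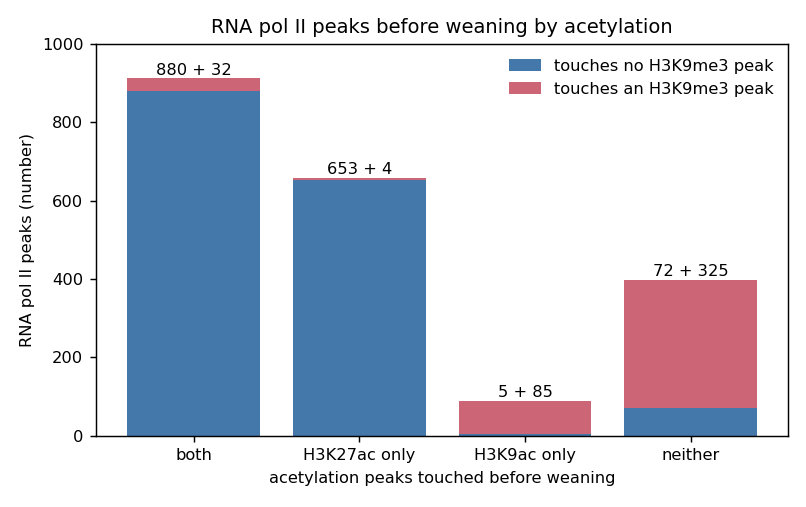
Number of RNA pol II peaks before weaning (y axis) in each acetylation class (x axis), split by whether the peak touched an H3K9me3 peak. The classes on both marks (880 without and 32 with H3K9me3) and on H3K27ac only (653 and 4) were almost free of H3K9me3, unlike the classes on H3K9ac only (5 and 85) and on neither mark (72 and 325).

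Among the 1610 RNA pol II peaks that touched no H3K9me3 peak, acetylation was close to general. Of these, 1538 (95.5%, 94.4 to 96.4) touched at least 1 acetylation mark, 880 (54.7%) both marks and 653 (40.6%) H3K27ac only. H3K9ac without H3K27ac was found at 5 of them (0.311%, 0.133 to 0.725), and neither mark at 72 (4.47%, 3.57 to 5.59). In this set, H3K27ac was present at 880 of the 885 peaks with H3K9ac (99.4%) and at 653 of the 725 peaks without it (90.1%). The 446 RNA pol II peaks on H3K9me3 had the opposite make-up, with 36 (8.07%) on H3K27ac and 117 (26.2%) on H3K9ac.

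The number of RNA pol II centres per Mb of sequence takes account of how much sequence each mark covered, though not of the width of the single peaks, with which this density also rose. Where H3K27ac and H3K9ac overlapped (3.98 Mb), there were 181.9 RNA pol II centres per Mb (169 to 196). Where H3K27ac lay alone (30.9 Mb), there were 24.2 per Mb (22.5 to 26.0), and in sequence with neither mark 0.195 per Mb (0.178 to 0.212). H3K9ac alone, which took up 0.506 Mb, held 148 centres per Mb (117 to 186), a density close to that of the doubly marked sequence. Of its 75 centres, 71 belonged to RNA pol II peaks on H3K9me3. With RNA pol II peaks on H3K9me3 left out, it was 7.90 per Mb (2.15 to 20.2), from 4 centres, whereas the doubly marked sequence still held 176 per Mb (163 to 190) and H3K27ac alone 24.0 per Mb (22.3 to 25.8). RNA pol II peaks on H3K9me3 reached 140 per Mb (109.6 to 177) under H3K9ac alone and 0.194 per Mb (0.0712 to 0.422) under H3K27ac alone.

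**Figure D2:**
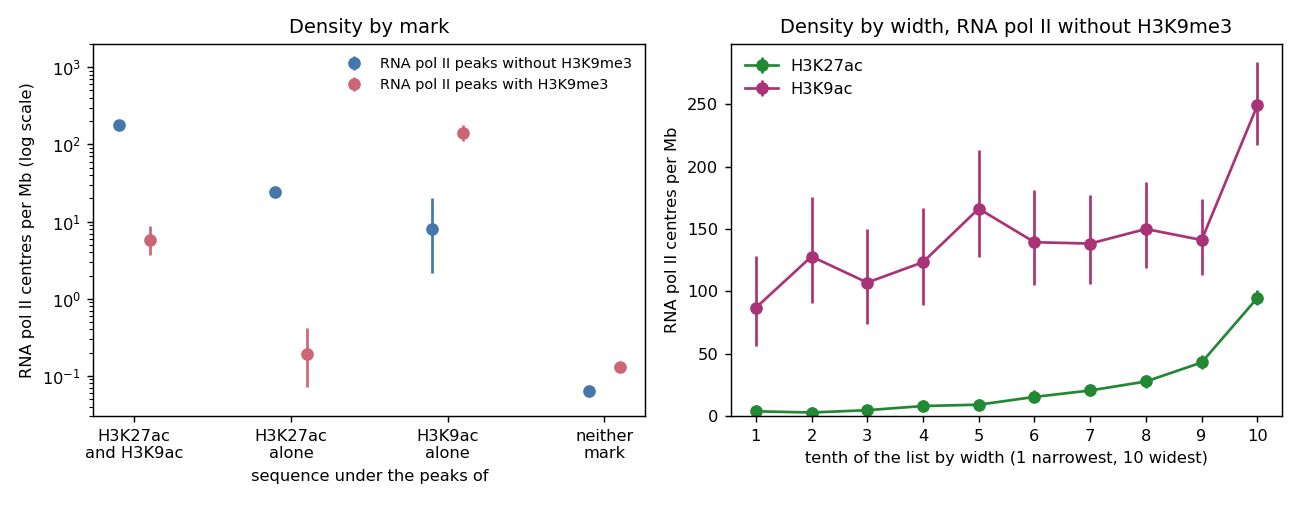
Left, RNA pol II centres per Mb (log scale) in sequence under both acetylation marks, 1 mark or neither, for RNA pol II peaks without and with H3K9me3. Right, centres per Mb of acetylation peak for RNA pol II peaks without H3K9me3, over 10 groups of equal size from the narrowest to the widest peaks of each list. Bars are exact Poisson 95% intervals. Without H3K9me3, density was 176 per Mb under both marks and 24.0 under H3K27ac alone, and in the H3K27ac list it was 94.8 per Mb in the widest group.

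RNA pol II centres lay at varied distances from the centre of the H3K27ac peak. The distance between the centres had a median of 265.5 bp (248 to 277.5, n = 1569), and 307 peaks (19.6%) were within 100 bp. The RNA pol II peak was mostly contained in the acetylated stretch: 999 peaks (63.7%, 61.3 to 66.0) lay wholly inside their H3K27ac peak, and the median RNA pol II peak filled 25.1% of it. The offset in bp was similar in the classes on both marks (258.5 bp, 235.5 to 279.5) and on H3K27ac only (271.5 bp, 247 to 301.5). Relative to the acetylation peak the classes differed, but the sorting itself bears on this contrast. In 211 of the 657 cases on H3K27ac only (32.1%), the H3K27ac peak carried an H3K9ac peak that RNA pol II missed by definition. The contrast was not tested without these cases. The offset was 0.504 of the distance from centre to edge on both marks (0.474 to 0.526) and 0.694 on H3K27ac only (0.663 to 0.731). The inner 50% of the H3K27ac peak held the RNA pol II centre in 449 of 912 cases on both marks (49.2%, 46.0 to 52.5) and in 212 of 657 on H3K27ac only (32.3%, 28.8 to 35.9). On H3K27ac only, 70 of 657 RNA pol II centres (10.7%, 8.52 to 13.2) lay outside the H3K27ac peak that the RNA pol II peak touched, compared with 29 of 912 (3.18%, 2.22 to 4.53) on both marks.

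In bp, RNA pol II centres were nearer to the centre of H3K9ac than to that of H3K27ac. The median offset to the H3K9ac centre was 101 bp (91 to 110.5, n = 1002), and 498 peaks (49.7%) were within 100 bp. Peak width moved with this result, since the peaks with RNA pol II had a median width of 323 bp for H3K9ac and 963 bp for H3K27ac. Relative to the distance from centre to edge, the median offset was 0.558 (0.515 to 0.596) for H3K9ac and 0.588 (0.558 to 0.609) for H3K27ac. In the class on both marks the order turned, with 0.570 (0.530 to 0.615) for H3K9ac and 0.504 (0.474 to 0.526) for H3K27ac. RNA pol II centres lay outside the H3K9ac peak in 202 of 1002 cases (20.2%). For H3K27ac it was 99 of 1569 (6.31%). The nearness in bp was thus not kept once offsets were scaled to width. In the class on both marks, the RNA pol II centre was closer in bp to the H3K9ac than to the H3K27ac centre in 695 of 912 cases (76.2%, 73.3 to 78.9). The 2 acetylation peaks touched each other in 904. Both acetylation centres lay on the same side of the RNA pol II centre in 663 cases (72.7%, 69.7 to 75.5). Where the H3K27ac centre was at least 200 bp away, the H3K9ac centre lay between RNA pol II and the H3K27ac centre in 389 of 551 cases (70.6%, 66.7 to 74.2). This condition favours that order, because a narrow H3K9ac peak that touches RNA pol II has its centre close by. The direction of transcription was not assigned, because no gene annotation of the genome build of these lists was used.

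The class on H3K9ac only was the most closely centred. Its median offset was 50 bp (34.5 to 75.5, n = 90) compared with 105.25 bp (94 to 116) for H3K9ac in the class on both marks. Here the H3K9ac peak was commonly the smaller of the pair, and the median RNA pol II peak took up 100% of it (interquartile range 93.9 to 100).

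The share of RNA pol II peaks covered by each mark was followed from the RNA pol II centre outwards. Coverage at the centre itself follows from the sorting and is not a finding. In the class on H3K27ac only, 89.3% of the centres were inside an H3K27ac peak. Away from the centre, the share rose from 66.3% at 250 bp to 74.3% at 450 bp. In the class on both marks the corresponding values were 96.8%, 76.0% and 76.8%. H3K9ac was also found beside the RNA pol II peaks of the class on H3K27ac only, where coverage was 18.1% at 500 bp, 9.59% at 1000 bp and 1.75% at 3000 bp. Its low coverage nearer to the centre follows from the sorting, since these RNA pol II peaks touch no H3K9ac. Around peaks on both marks, H3K9ac coverage was 79.6% at the centre, 42.6% at 200 bp, 22.9% at 500 bp and 2.47% at 3000 bp. H3K9me3 extended beyond the RNA pol II peak in the other classes. At 1000 bp it covered 30% of the positions in the class on H3K9ac only and 22.5% in the class on neither mark, compared with 1.10% on both marks and 0.228% on H3K27ac only.

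**Figure D3:**
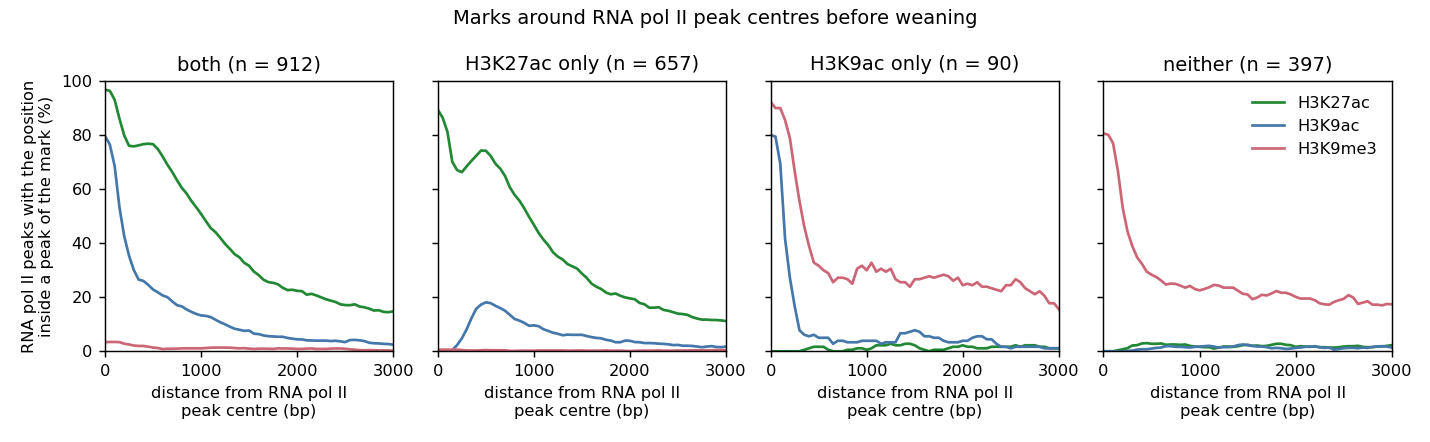
Percentage of RNA pol II peaks (y axis) for which the position at a given distance from the RNA pol II centre (x axis, bp, both directions averaged) lay inside a peak of H3K27ac, H3K9ac or H3K9me3 before weaning, in each class. H3K27ac coverage in the class on H3K27ac only was 66.3% at 250 bp and 74.3% at 450 bp, and H3K9me3 dominated the classes on H3K9ac only and on neither mark.

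Many RNA pol II peaks on H3K27ac only were close neighbours of H3K9ac, though the distance of other H3K27ac peaks to H3K9ac was not measured. The nearest H3K9ac peak was a median of 743 bp away (575 to 890), and 364 of the 657 peaks (55.4%, 51.6 to 59.2) had one within 1000 bp. In 211 cases (32.1%, 28.7 to 35.8) the H3K27ac peak under RNA pol II itself carried an H3K9ac peak that RNA pol II missed. The RNA pol II peaks on H3K9ac only were far from H3K27ac, by a median of 30989 bp (17436 to 66005), and 9 of 90 had an H3K27ac peak within 1000 bp.

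RNA pol II peaks on neither mark were a median of 10927 bp from the nearest acetylation peak of either kind (8476 to 13978, n = 397), with 50 of them (12.6%) within 1000 bp and 194 (48.9%) within 10000 bp. As a measure of how much room there was, 4.80% of the genome lay within 1000 bp of an acetylation peak and 20.4% within 10000 bp. The 72 peaks without H3K9me3 were nearer, at 5403 bp (3086 to 7255), and 15 of them were within 200 bp. The 325 peaks with H3K9me3 were at 13978 bp (10338 to 19263), and 2 of them were within 200 bp. H3K9me3 peaks that had neither RNA pol II nor acetylation were farther still, at 39829 bp (35690 to 44778, n = 1968). The peak farthest from acetylation, at chromosome 1, positions 30419170 to 30419371 (202 bp), was 1445595 bp away and touched no peak of the other 7 lists.

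**Figure D4:**
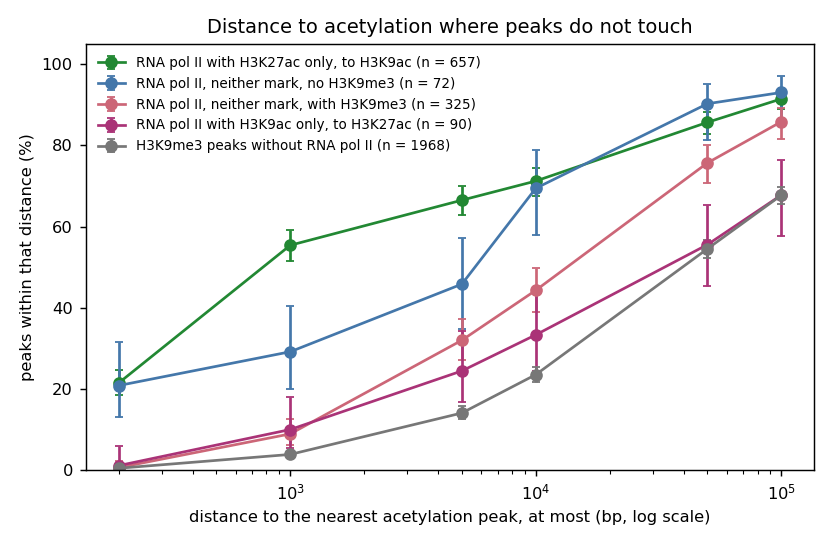
Cumulative percentage of peaks (y axis) within a given distance (x axis, bp, log scale) of the nearest acetylation peak that they do not touch, with Wilson 95% intervals. Lines are RNA pol II classes, the class on neither mark split by H3K9me3, and H3K9me3 peaks with neither RNA pol II nor acetylation. RNA pol II peaks on H3K27ac only had H3K9ac within 1000 bp in 55.4% of cases, and peaks on neither mark had acetylation that near in 29.2% without and 8.92% with H3K9me3.

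The surroundings also differed between the classes. Within 10000 bp, beyond any peak touched, the median RNA pol II peak had 3 further H3K27ac peaks in the class on both marks (95% CI 3 to 4) and 3 in the class on H3K27ac only (3 to 3). In the classes on H3K9ac only and on neither mark the median was 0, and no H3K27ac peak was found in that window at 60 of 90 and 275 of 397 peaks. On both marks and on H3K27ac only, no further one was found at 72 of 912 and 39 of 657 peaks. On neither mark, the 72 peaks without H3K9me3 had a median of 1 (1 to 2), with none at 27. The 325 peaks with H3K9me3 had a median of 0, with none at 248. The 32 peaks that had both acetylation marks and H3K9me3 had a median of 0 further H3K27ac peaks (0 to 1). For H3K9ac, no further peak was found in the window at 233 of 912 RNA pol II peaks on both marks, 189 of 657 on H3K27ac only, 45 of 90 on H3K9ac only and 242 of 397 on neither mark, and at 16 of the 32 peaks with both marks and H3K9me3.

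Acetylation peaks with RNA pol II were compared with those without it. Over the full lists, 2.07% of the H3K27ac peaks (1539 of 74249) and 7.07% of the H3K9ac peaks (1017 of 14384) touched an RNA pol II peak. H3K27ac peaks with RNA pol II had a median width of 963 bp (933 to 995), compared with 339 bp (337 to 341) for those without, a ratio of 2.84. With the RNA pol II list labelled after weaning in its place, the difference of 624 bp was 3 bp. For H3K9ac the medians were 323 bp (307 to 337) and 263 bp (261 to 265), a ratio of 1.23. The widest H3K27ac peak of the list, at chromosome 18, positions 48668515 to 48674649 (6135 bp), had 1 RNA pol II peak. The widest without RNA pol II was at chromosome 24, positions 37937384 to 37943141 (5758 bp), and touched H3K9ac. For H3K9ac these were at chromosome 3, positions 14131713 to 14133293 (1581 bp), with RNA pol II, and on the same chromosome at 9893570 to 9895128 (1559 bp), without it.

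A wide peak is more likely to be touched for reasons of length, so the widths were also read per Mb. For RNA pol II peaks without H3K9me3, density in the H3K27ac list was 3.99 centres per Mb (1.46 to 8.68) in the narrowest of 10 equal groups (200 to 211 bp), 15.5 per Mb (11.2 to 20.9) in the sixth group (343 to 407 bp) and 94.8 per Mb (88.7 to 101.1) in the widest (883 to 6135 bp). The widest group held 854 of the 1539 H3K27ac peaks with RNA pol II (55.5%, 53.0 to 58.0). In the H3K9ac list the density was 86.9 per Mb (56.2 to 128) in the narrowest group and 249 per Mb (217 to 284) in the widest, with 107 to 166 per Mb in the 8 groups between them. Across the groups, density rose more in the H3K27ac list, but the groups spanned unlike widths in each list. The widest group began at 883 bp for H3K27ac and at 483 bp for H3K9ac. With lists of equal length, the width difference (with minus without RNA pol II) was 296.5 bp for H3K27ac and 60 bp for H3K9ac. With a reciprocal overlap of 50% it was 60 bp and 31 bp. Density was not compared between the marks at equal widths, and the difference was not tested.

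RNA pol II was more frequent at H3K27ac peaks that touched H3K9ac, although 483 of the 1539 H3K27ac peaks with RNA pol II touched none. Of the H3K27ac peaks that touched H3K9ac, 9.28% (8.76 to 9.83, n = 11380) touched RNA pol II, compared with 0.768% (0.703 to 0.840, n = 62869) of the others. The share was higher with H3K9ac in all 10 width groups, and the intervals were apart in each. In the widest group it was 16.3% with H3K9ac and 4.64% without it, and in the narrowest 2.60% and 0.138%. Among H3K27ac peaks without H3K9ac, those with RNA pol II were also wider, 638 bp (599 to 697) against 312 bp (311 to 314).

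The reverse did not hold in the H3K9ac list as a whole. RNA pol II was present at 7.15% (6.72 to 7.61, n = 12949) of the H3K9ac peaks with H3K27ac and at 6.34% (5.19 to 7.72, n = 1435) of those without it, and the share was higher with H3K27ac in 1 of the 10 width groups. H3K9me3 moved with the second share. Of the 91 H3K9ac peaks with RNA pol II but no H3K27ac, 85 (93.4%) touched H3K9me3, while over all H3K9ac peaks before weaning 0.911% did. Among H3K9ac peaks without H3K9me3, RNA pol II was present at 6.93% (6.51 to 7.38, n = 12911) with H3K27ac and 0.447% (0.205 to 0.972, n = 1342) without it.

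Several RNA pol II peaks could share an acetylation peak. Of the 1539 H3K27ac peaks with RNA pol II, 1429 touched 1 RNA pol II peak, 91 touched 2, 17 touched 3 and 2 touched 4. Their median widths were 925, 1583, 2718 and 3104 bp in that order. Both H3K27ac peaks with 4 also touched H3K9ac and were still listed after weaning. The first was at chromosome 2, positions 86447947 to 86451184 (3238 bp), and its RNA pol II peaks started at 86448251, 86448819, 86449329 and 86450453. The second was at chromosome 10, positions 80967869 to 80970838 (2970 bp), with RNA pol II peaks that started at 80968282, 80969396, 80970266 and 80970716. The widest of the 17 with 3 was at chromosome 25, positions 34854361 to 34859539 (5179 bp), and its RNA pol II peaks, all on both marks, lay between 34857962 and 34859134. In the H3K9ac list, 22 peaks touched 2 RNA pol II peaks and 995 touched 1.

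RNA pol II peaks also differed in width between the classes. The median was 279.5 bp (272 to 287) on both marks, 251 bp (243 to 257) on H3K27ac only, 428.5 bp (370 to 496) on H3K9ac only and 274 bp (261 to 289) on neither mark. H3K9me3 moved with width. On both marks, the median was 545 bp (418 to 668, n = 32) with H3K9me3 against 275 bp (270 to 284, n = 880). On H3K9ac only the medians were 448 bp (370 to 511, n = 85) with H3K9me3 and 253 bp (205 to 418, n = 5) without it, and on neither mark 281 bp (268 to 295, n = 325) and 243 bp (229 to 255, n = 72). The widest RNA pol II peak of the list was on H3K9ac only, at chromosome 11, positions 61798452 to 61799742 (1291 bp), with its centre 7 bp from that of its H3K9ac peak. The next widest of that class lay on the same chromosome, at 61789879 to 61790825 (947 bp). Both touched H3K9me3 and 6 of the other 7 lists. The widest on both marks, at chromosome 23, positions 27332858 to 27334043 (1186 bp), touched no H3K9me3, and its centre was 53 bp from that of H3K27ac and 88 bp from that of H3K9ac. The widest on H3K27ac only lay on chromosome 1, from 143172486 to 143173376 (891 bp). On neither mark, the widest was at chromosome 9, positions 27235615 to 27236463 (849 bp), 3114 bp from acetylation and on H3K9me3.

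The peaks after weaning gave a readout the classes had not used. Of all RNA pol II peaks before weaning, 19.3% touched an RNA pol II peak after weaning. The share was 5.04% on both marks (46 of 912, 3.80 to 6.66) and 1.22% on H3K27ac only (8 of 657, 0.618 to 2.38). It was 88.9% on H3K9ac only (80 of 90, 80.7 to 93.9) and 66.0% on neither mark (262 of 397, 61.2 to 70.5). With a reciprocal overlap of 50%, which regrouped many peaks, H3K9ac only had 12.9% (10.2 to 16.2, n = 479). Both marks then had 16.7% (10.2 to 26.1, n = 84), an overlapping interval, and neither mark had 22.8%. With H3K27ac and H3K9ac lists of equal length, the shares were 46.3% on H3K9ac only, 44.5% on neither mark and 1.59% on both marks. The share found again was higher with H3K9me3 than without it in each class. On both marks it was 30 of 32 peaks with H3K9me3 and 16 of 880 without it (1.82%, 1.12 to 2.93), and on H3K27ac only 4 of 4 and 4 of 653. On H3K9ac only it was 78 of 85 and 2 of 5, and on neither mark 255 of 325 and 7 of 72.

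H3K27ac after weaning was compared between the classes. Its list was far longer than that of RNA pol II after weaning, with 30446 peaks against 738, so the shares for these lists cannot be set against each other. Over all RNA pol II peaks before weaning, 66.0% touched an H3K27ac peak after weaning. On both marks it was 829 of 912 (90.9%, 88.9 to 92.6), and on H3K27ac only 360 of 657 (54.8%, 51.0 to 58.6). In the class on H3K9ac only, which by the sorting had no H3K27ac before weaning, 61 of 90 peaks (67.8%, 57.6 to 76.5) touched H3K27ac after weaning, and on neither mark 106 of 397 (26.7%, 22.6 to 31.3). H3K9me3 moved with the last share, which was 103 of 325 with H3K9me3 (31.7%, 26.9 to 36.9) and 3 of 72 without it (4.17%, 1.43 to 11.5). The share on H3K9ac only was 59 of 85 peaks with H3K9me3 (69.4%) and 2 of 5 without it. An H3K9ac peak after weaning was touched by 17.5% of all RNA pol II peaks. On both marks it was 127 of 912 (13.9%), 30 of 32 with H3K9me3 and 97 of 880 without it. On H3K27ac only it was 16 of 657 (2.44%). On H3K9ac only it was 72 of 90 (80.0%), 70 of 85 with H3K9me3 and 2 of 5 without it. On neither mark it was 144 of 397 (36.3%), 140 of 325 with H3K9me3 and 4 of 72 without it. H3K9me3 after weaning was touched by 20.4% of all, by 77 of 90 on H3K9ac only and by 303 of 397 on neither mark. On neither mark this was 293 of 325 with H3K9me3 before weaning and 10 of 72 without it. The median number of the other 7 lists touched by an RNA pol II peak was 3 on both marks, 2 on H3K27ac only, 6 on H3K9ac only (95% CI 5 to 6) and 3 on neither mark, and 28 peaks, all in the class on both marks as the count requires, touched all 7. These 7 include the acetylation lists before weaning, so the sorting itself sets part of the count in each class. The part of the shared input in this coincidence of lists was not tested.

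Acetylation peaks that carried RNA pol II before weaning were more often found again. Over all H3K27ac peaks, 27.9% touched an H3K27ac peak after weaning, with 81.5% (79.5 to 83.4, n = 1539) of those with RNA pol II and 26.7% (26.4 to 27.1, n = 72710) of those without it. Width moved with this result, and within the 10 width groups the share was higher with RNA pol II in all 10, with intervals apart in each. In the widest group it was 92.0% against 73.6%, and in the fifth (297 to 343 bp) 42.9% against 17.4%. H3K9me3 was rare in this list: 0.0741% of the H3K27ac peaks touched it, and without those peaks the shares were 81.3% and 26.7%. With H3K9ac the shares were 93.5% and 62.9%, and without it 55.5% and 20.8%. For H3K9ac, 6.60% of all peaks were found again, 20.6% (18.3 to 23.2, n = 1017) with RNA pol II and 5.53% (5.15 to 5.93, n = 13367) without it. H3K9me3 moved with this result: among H3K9ac peaks without H3K9me3 the shares were 12.2% (10.2 to 14.5) and 5.47% (5.10 to 5.87).

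**Figure D5:**
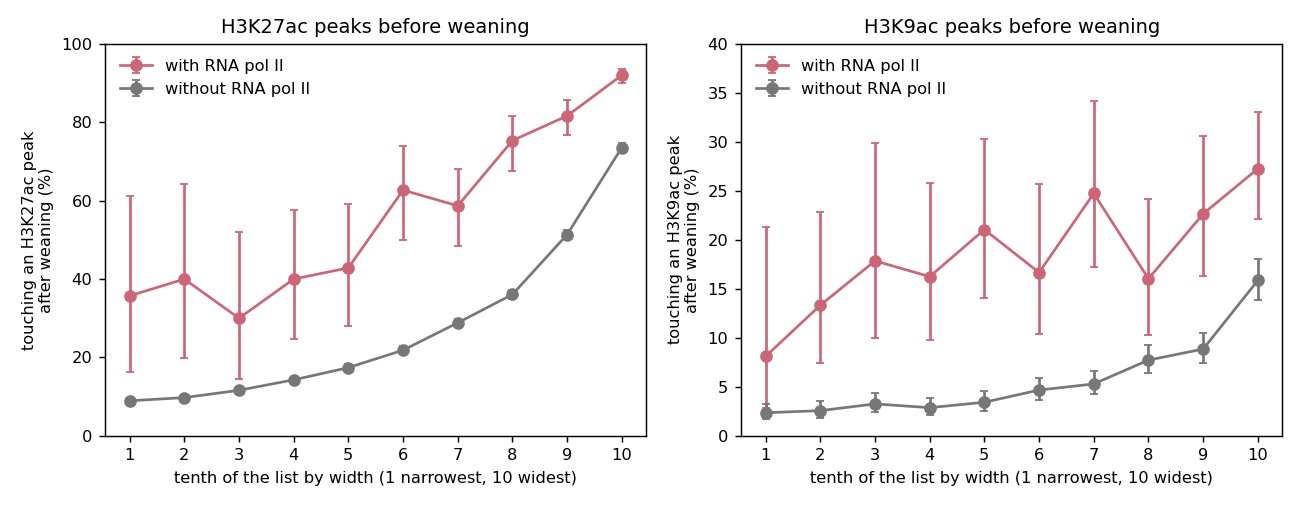
Percentage of H3K27ac (left) and H3K9ac (right) peaks before weaning that touched a peak of the same mark after weaning (y axis), with and without RNA pol II before weaning, over 10 groups of equal size by width (x axis). Bars are Wilson 95% intervals. For H3K27ac the peaks with RNA pol II were above the others in all 10 groups, with 92.0% against 73.6% in the widest.

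The classes were spread unevenly over the chromosomes. Peaks on both marks and on H3K27ac only were found on all 30 chromosomes (1 to 29 and X), and peaks on H3K9ac only on 19. Both marks formed the most frequent class on 21 chromosomes. Neither mark was the most frequent on chromosomes 6, 9 and 17, with 32 of 76, 43 of 96 and 126 of 206 peaks, and shared the first place on X with 8 of 22. Chromosome 12 had 36 RNA pol II peaks and 0 without acetylation, which allows a share of up to 8.33% (3 counts of 36, counting error only). A dense cluster on chromosome 17, between 50 and 52 Mb, held 127 of the RNA pol II peaks. Of these, 98 (77.2%, 69.1 to 83.6) touched neither mark, 20 H3K9ac only, 8 both and 1 H3K27ac only, and 124 touched H3K9me3. Outside the cluster, 46.9% of 1929 peaks touched both marks, 34.0% H3K27ac only, 3.63% H3K9ac only and 15.5% neither, so the order of the classes did not rest on it.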

How the data were processed

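Chromatin immunoprecipitation sequencing (ChIP-seq) of RNA pol II, H3K27ac, H3K9ac and H3K9me3 in rumen epithelial tissue gave 8 deposited peak lists, 1 library per target and time point, while the input had no list. Per the labels, reads of 75 nt were sequenced; the submitters' processing notes name Trim Galore 0.4.1, BWA, MACS2 and the cattle build UMD3.1. The authors deposited other values than counts, namely the chromosome, start and end position of each peak, with no height, score, p-value or depth, so neither the strength of a peak nor the depth of a library was used here, and a missing peak may reflect depth. Positions were read as 1-based with both ends included.

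Overlaps (at least 1 bp), centre offsets, gaps between peak ends and RNA pol II centres per Mb were computed with Python 3.11.15, pandas 2.3.3, numpy 2.4.6 and SciPy 1.17.1, and plotted with matplotlib 3.10.9. The scripts were tested on simulated data. Where several peaks of a mark were touched, the offset was taken to the one that shared the most bases. Named regions were the 3 widest RNA pol II peaks of a class, the one farthest from acetylation, the 3 of the class on both marks with the smallest H3K27ac offset, the widest acetylation peaks with and without RNA pol II, and the 3 touched by most RNA pol II peaks; not all are printed. With 1 library per group no test was made. The members, the width groups and the chromosome 17 cluster were chosen with earlier results of these data known. No gene annotation or genome of the build was used, so genes, sequences and tissue markers were not analysed here. Alternatives covered the overlap rule, extended, merged or stricter peaks, lists of equal length, peaks without H3K9me3, peaks outside the cluster and the other RNA pol II list.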

Additional observations from a re-analysis of the deposited data

How the results depend on the processing

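Of 249 values recomputed under other settings, 102 stayed within their 95% intervals and 147 moved. Only the width differences could change sign, and they did not. With the RNA pol II list labelled after weaning the sign was not settled. The interval, from the limits of both medians, was -74 to 158 bp for H3K27ac and -7 to 37 bp for H3K9ac. The order of the classes changed under several settings. The shares of RNA pol II peaks are given in the order both marks, H3K27ac only, H3K9ac only and neither. With a reciprocal overlap of 50% they were 4.09%, 6.37%, 23.3% and 66.2%, the median offsets were 63 bp (H3K27ac) and 50.5 bp (H3K9ac), and the distance of peaks on neither mark was 0 bp, since many of them still touched acetylation. The width differences (with minus without RNA pol II) were then 60 bp and 31 bp, the shares of acetylation peaks with RNA pol II 0.290% and 3.91%, and on neither mark 26.8% touched H3K9me3 and 22.8% RNA pol II after weaning. With the RNA pol II centre inside the acetylation peak, both marks had 35.2%, H3K27ac only 36.3% and neither 24.9%, the H3K9ac offset was 73.5 bp, the distance 5246 bp, the width differences 671.5 bp and 78 bp, the shares with RNA pol II 1.83% and 5.46%, and on neither mark 67.7% touched H3K9me3 and 55.6% RNA pol II after weaning. With acetylation peaks extended by 1000 bp, the classes held 63.2%, 15.0% and, for neither, 16.9%, the offsets were 488.75 bp and 321.25 bp, the distance 15238 bp, the width differences 358 bp and 41 bp, and the shares with RNA pol II 4.0% and 13.3%.

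With acetylation peaks wider than the median, the classes held 30.4%, 41.1%, 2.87% and 25.6%, the offsets were 283.5 bp and 130 bp, the distance 18423 bp, the H3K27ac width difference 467 bp, the shares with RNA pol II 3.84% and 9.37%, and on neither mark 72.3% touched H3K9me3 and 60.3% RNA pol II after weaning. With RNA pol II peaks wider than the median, the first 3 classes held 47.9%, 25.6% and 6.82%, the H3K9ac offset was 115 bp, its width difference 76.5 bp, the shares with RNA pol II 1.07% and 4.12%, and on neither mark 87.6% touched H3K9me3 and 74.8% RNA pol II after weaning. Merging within 1000 bp gave 47.0% on both marks, 29.6% on H3K27ac only, offsets of 374.5 bp and 207.5 bp, width differences of 1871 bp and 547 bp, and shares with RNA pol II of 3.21% and 8.08%. With as many H3K27ac as H3K9ac peaks, the widest, the classes held 36.8%, 22.0%, 12.0% and 29.3%, the H3K27ac offset was 344.25 bp, its width difference 296.5 bp, its share with RNA pol II 7.76%, and on neither mark 54.7% touched H3K9me3 and 44.5% RNA pol II after weaning.

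Without RNA pol II peaks on H3K9me3, the classes held 54.7%, 40.6%, 0.311% and 4.47%, the distance was 5403 bp, 6.26% of H3K9ac peaks had RNA pol II, and 9.72% on neither mark touched RNA pol II after weaning. Without the chromosome 17 cluster, both marks had 46.9%, H3K27ac only 34.0% and neither 15.5%, of which 76.9% touched H3K9me3 and 60.9% RNA pol II after weaning. The RNA pol II list labelled after weaning gave 6.50%, 1.22%, 10.98% and 81.3%, offsets of 109 bp and 57.5 bp, a distance of 17558.5 bp, width differences of 3 bp and 12 bp, shares with RNA pol II of 0.0768% and 0.918%, and on neither mark 90.3% on H3K9me3 and 43.2% on the RNA pol II list labelled before weaning. Beyond what each setting alters by construction, the cause was not tested. No replicate could be left out, since each group holds 1 library. No paired analysis was possible because each group holds 1 library and no test was made. Depth was not used here, so a peak absent from a list may have been missed for lack of reads.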
